A study of Paulownia elongata with 2 samples.

Results

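In a transcriptome assembled without a genome, IDs that share an assembly component can have counts that differ between treatments in opposite directions. Described here are 18 such assembled genes, picked by a rule. They come from the leaf transcriptome of the fast-growing tree Paulownia elongata. An assembled gene such as TR14002|c5_g2 belongs to the component named before the bar. Members were chosen from the authors' normalized counts: a mean of at least 20 over the 4 libraries, and either both salt libraries at least 1.5 times the higher control library or both control libraries at least 1.5 times the higher salt library, in a component that held at least 1 assembled gene of each kind. The rule found 8 higher and 10 lower members in 7 components, out of 58997 assembled genes in 39968 components. Because the rule used the salt and control values themselves, every difference between treatments given below for a member is a description with no test.

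The salt group was potted trees aged 3 years that were watered with 125 mM NaCl, and the control group was trees of that age, labelled wild type, that received plain water. Both were given 1.5 L each day over 10 days in a greenhouse. Leaf RNA was sequenced in 2 salt libraries (SS1 and SS2) and 2 control libraries (AC1 and BC1), which held between 3752433 and 4682210 expected counts each. No label says that paired libraries are different plants, so the SDs below cover the spread between libraries, which may be technical. The salt record names its libraries SS2 and SS4, while its files are SS1 and SS2, and the files were used under the record that holds them. RNA came from bulk leaf tissue, so fewer cells of a type and less RNA per cell cannot be told apart.

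Sodium chloride burdens leaves both osmotically and through the entry of sodium ions, and plants commonly respond with broad changes in transcript levels. Many plant genes have close relatives, such as duplicated copies, and relatives in 1 family may be used under different conditions. A single gene can also have several alleles or splice forms. An assembler working without a genome builds contigs from overlapping reads, so a component groups contigs by shared read sequence, and it may hold copies of 1 gene, fragments of 1 transcript or unrelated genes that share a stretch. IDs are not paired with gene names in the files, so no member has a named product here, no leaf marker could be looked up, and the word related refers only to the shared component. IDs that also share the part before "_g" (such as TR14002|c5) belong to the same narrower read cluster.

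Opposed components were a small minority. Of 15247 assembled genes with a mean of at least 20, 897 (5.88%) were on the higher side of the rule and 822 (5.39%) on the lower side. Since the rule used this contrast, those shares are only the background. These assembled genes fell 2 or more to a component in 113 components. In 46 of those all were higher in salt and in 60 all were lower, which leaves the 7 with both. The opposed components were large, with a median of 5 assembled genes at a mean of 20 or more (range 2 to 8), against a median of 2 over all 2111 components with at least 2 such genes. A large component has more assembled genes that can meet either side of the rule.

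**Figure D1:**
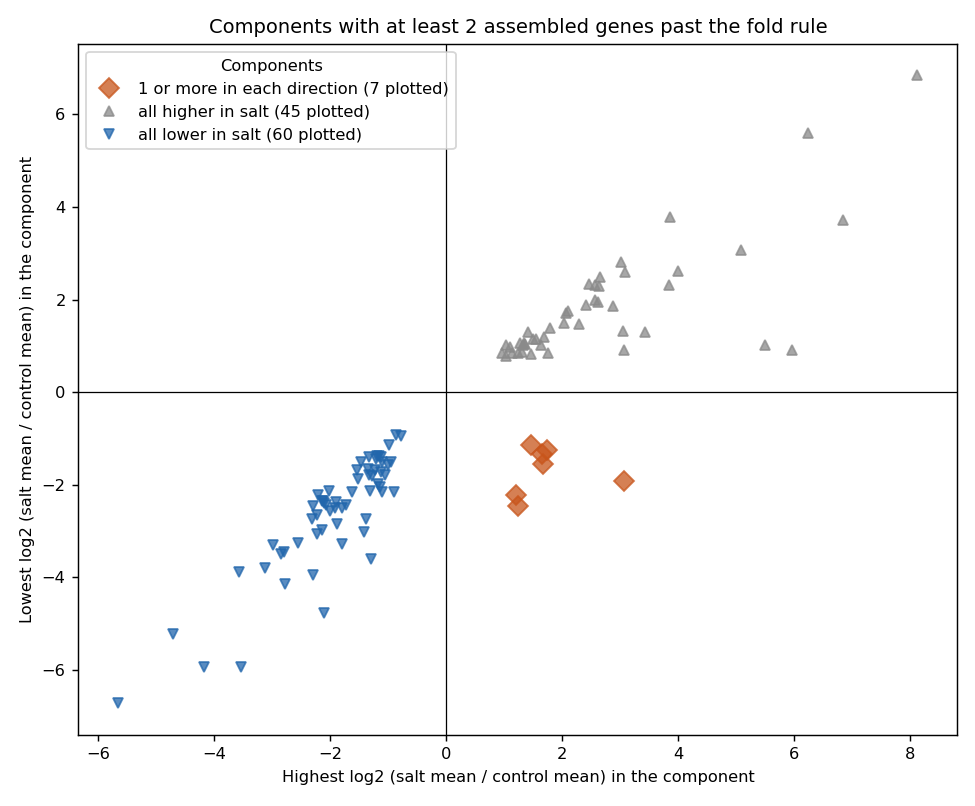
Each point is 1 component with at least 2 assembled genes past the fold rule, placed by its highest (horizontal axis) and lowest (vertical axis) log2 ratio of the salt mean to the control mean of normalized counts. Components with an assembled gene at 0 in both libraries of a treatment have no finite ratio and are left out, so the legend counts what is drawn. The 7 opposed components lie in the lower right quadrant, which the rule fixes.

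In 3 of the 7 components (TR14002, TR26892 and TR37728) a higher and a lower member shared the narrower read cluster, and in the other 4 they shared only the component. TR14002 held the widest contrast. Its higher member TR14002|c5_g2, of about 721 bases, had 5028 (SS1) and 4746 (SS2) normalized counts in salt, against 498 (AC1) and 668 (BC1) in control, a ratio of 8.38. Every salt value lay at least 7.11 times above the control values. The lower member of the same read cluster, TR14002|c5_g4, of 444 bases, had 46.7 and 42.5 normalized counts in salt (SS1 and SS2), against 128 and 102 in control (AC1 and BC1). A second lower member, TR14002|c2_g1, had 14.2 and 12.7 in salt, against 71.0 and 31.4 in control. It is short, at 240 bases, and rests on 14 to 61 expected counts per library.

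The read cluster of TR14002|c5_g2 also held a pair of abundant assembled genes that did not meet the rule. TR14002|c5_g3 had 8025 and 5676 normalized counts in salt, against 3137 and 5562 in control. TR14002|c5_g1 had 2737 and 3070 in salt, against 1521 and 3103 in control, so its treatments overlapped. Read per length, TR14002|c5_g2 averaged 2433 TPM ± 382 in salt and 229 TPM ± 51.8 in control (SD, n = 2 each), and TR14002|c5_g4 averaged 44.7 TPM ± 8.44 in salt and 90.4 TPM ± 12.01 in control.

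TR26892 was the simplest case of a shared read cluster, with 3 assembled genes of which only the opposed pair reached a mean of 20. The higher member TR26892|c1_g2 had 529.6 (SS1) and 1111 (SS2) normalized counts in salt, against 320.2 (AC1) and 195 (BC1) in control. By ratio, the salt libraries differed more from each other than SS1 did from AC1, and this was the higher member closest to the fold limit, at 1.65. The lower member TR26892|c1_g3, of 655 bases, had 43.5 and 44.7 in salt, against 133 and 127 in control, with tight agreement within each treatment. In SS2 their expected counts were 1229.5 and 49.5, so a read was split between the members there, while their counts in the other 3 libraries were whole.

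TR37728 set 3 lower members against 1 higher member. TR37728|c5_g4, about 6271 bases long on average, had 74.9 (SS1) and 176 (SS2) normalized counts in salt, against 823 (AC1) and 342 (BC1) in control. TR37728|c5_g2, of about 4305 bases, had 164 and 261 in salt, against 604 and 554 in control. Both were at least 1.94 times lower in every salt library than in either control library, although TR37728|c5_g4 differed more than 2-fold between libraries of the same treatment. TR37728|c3_g1 had 37.2 and 39.8 in salt, against 76.8 and 70.8 in control. The higher member TR37728|c5_g5, of 1135 bases, had 38.0 and 42.5 in salt, against 19.8 and 15.1 in control. It is the least abundant member, with a mean of 28.8, and its control values rest on 17 (AC1) and 13 (BC1) counts.

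The remaining components joined members of different read clusters. In TR12305, the higher member TR12305|c1_g2 had 364 in each salt library, against 145 (AC1) and 195 (BC1) normalized counts in control. TR12305|c0_g1, also higher, had 53.8 (SS1) and 38.9 (SS2) in salt, against 22.1 (AC1) and 5.81 (BC1) in control, where BC1 held only 5 counts. The lower member TR12305|c5_g5, of about 2722 bases and 5 isoforms, had 284 and 183 in salt, against 455 and 661 in control. Its distance between the treatments, 1.60-fold at the nearest libraries, was the smallest of all members, and with library totals its treatments overlapped. TR12305 then no longer met the rule, nor did it on the TPM scale.

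TR14689 held the most abundant lower member. TR14689|c3_g2 had 1168 (SS1) and 1140.3 (SS2) normalized counts in salt, against 2369 (AC1) and 2704 (BC1) in control. Its salt libraries lay close together and well below the control level, with a control-to-salt ratio of 2.197. The higher member TR14689|c4_g1 had 218 and 188 in salt, against 111 and 37.2 in control, so by ratio the control libraries stood further apart than AC1 and the salt libraries did. With counts scaled to library totals the nearest libraries of TR14689|c3_g2 were 1.17-fold apart, and TR14689 no longer met the rule.

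TR23805 and TR34947 were sparser. TR23805|c3_g1, of 1726 bases, had 57.0 (SS1) and 55.1 (SS2) normalized counts in salt, against 20.96 (AC1) and 26.7 (BC1) in control. Its lower partner TR23805|c2_g1, of about 579 bases, had 36.4 and 44.3 in salt, against 105 and 339 in control. That member had the largest control-to-salt ratio of the 10 lower members, 5.50, and a more than 3-fold difference between the control libraries. TR34947|c1_g1, of 606 bases, had 126 and 127 in salt, against 34.9 and 45.3 in control. TR34947|c4_g2, of about 1767 bases, had 61.4 and 71.4 in salt, against 173 and 160 in control. Neither of the last 2 varied by more than 1.5-fold within a treatment.

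**Figure D2:**
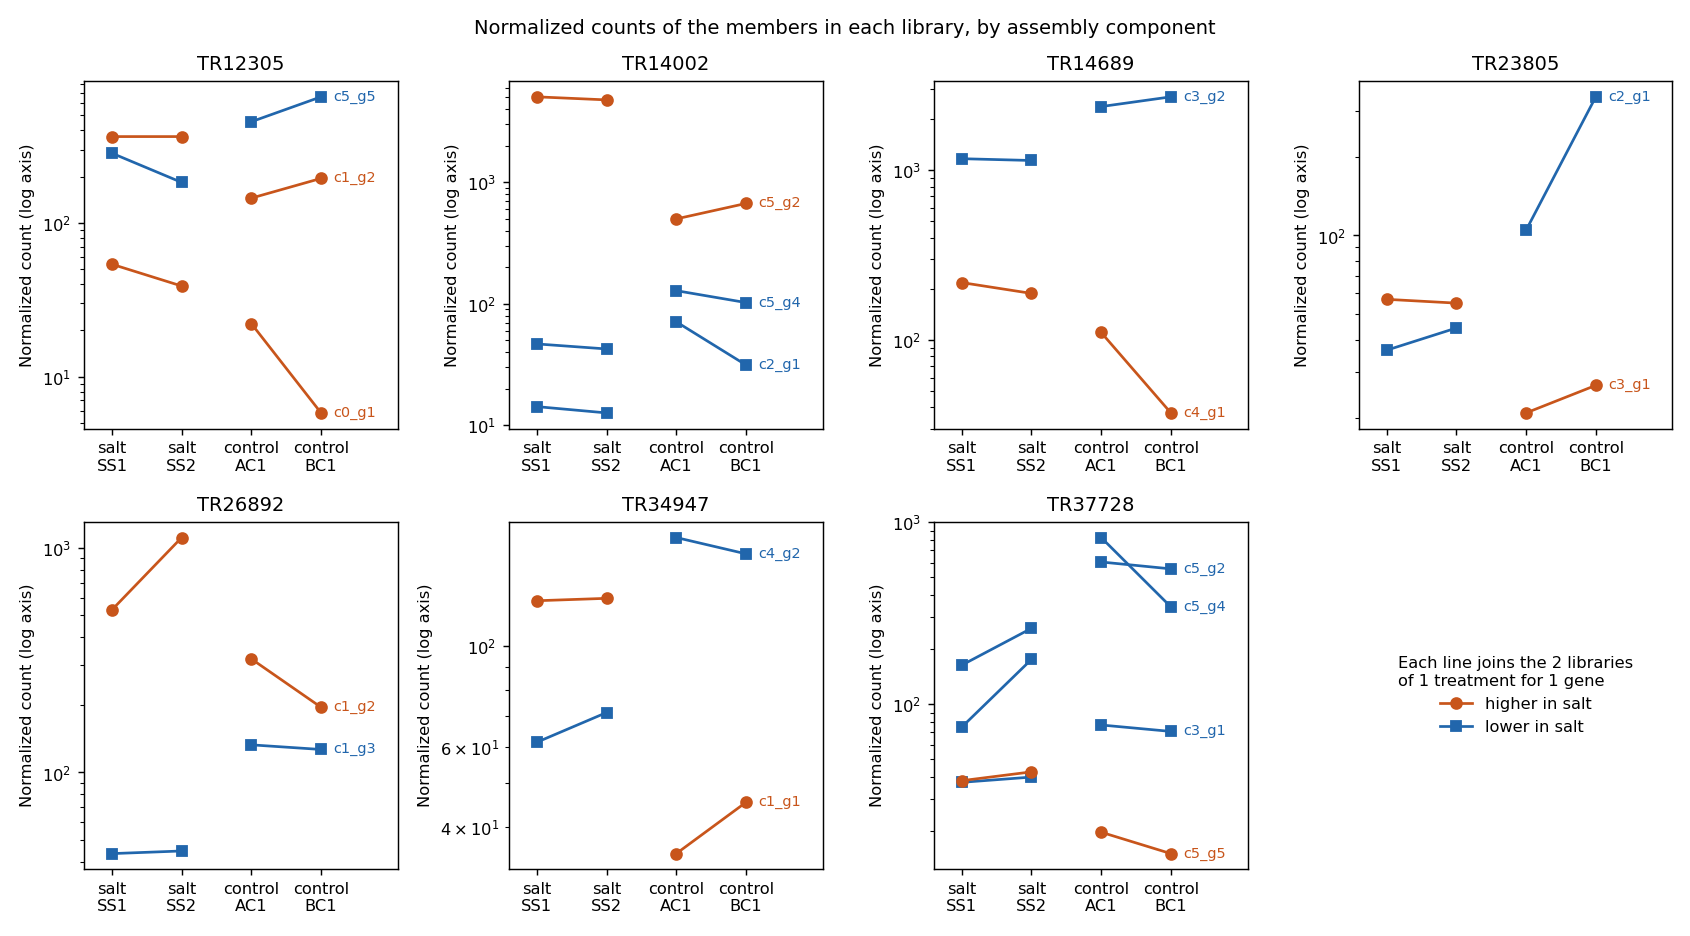
Normalized count (log axis) of each of the 18 members in the salt libraries SS1 and SS2 and the control libraries AC1 and BC1, 1 panel per component, with circles for higher and squares for lower members and lines joining the libraries of a treatment. The order of a higher and a lower member differs between treatments in TR12305 (c1_g2 and c5_g5), TR23805, TR34947 and TR37728 (c5_g5 and c3_g1), and in TR14002 the higher member lies above the lower ones in every library.

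A ratio of higher to lower members within a component does not depend on how libraries are scaled. The log2 ratio of their summed normalized counts was larger in salt by 2.43 (TR12305) to 4.57 (TR14002), with a median of 3.00 over the 7 components. Within a treatment the same ratio differed between libraries by 0.06 to 1.03 in salt and by 0.25 to 1.76 in control. The nearest salt and control libraries of a component were 1.82 to 4.04 apart. In each component the distance between treatments exceeded the distance between libraries of a treatment, as a rule that asks for 1.5-fold on both sides would favour. The widest spread, 1.76 between AC1 and BC1, was that of TR14689.

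**Figure D3:**
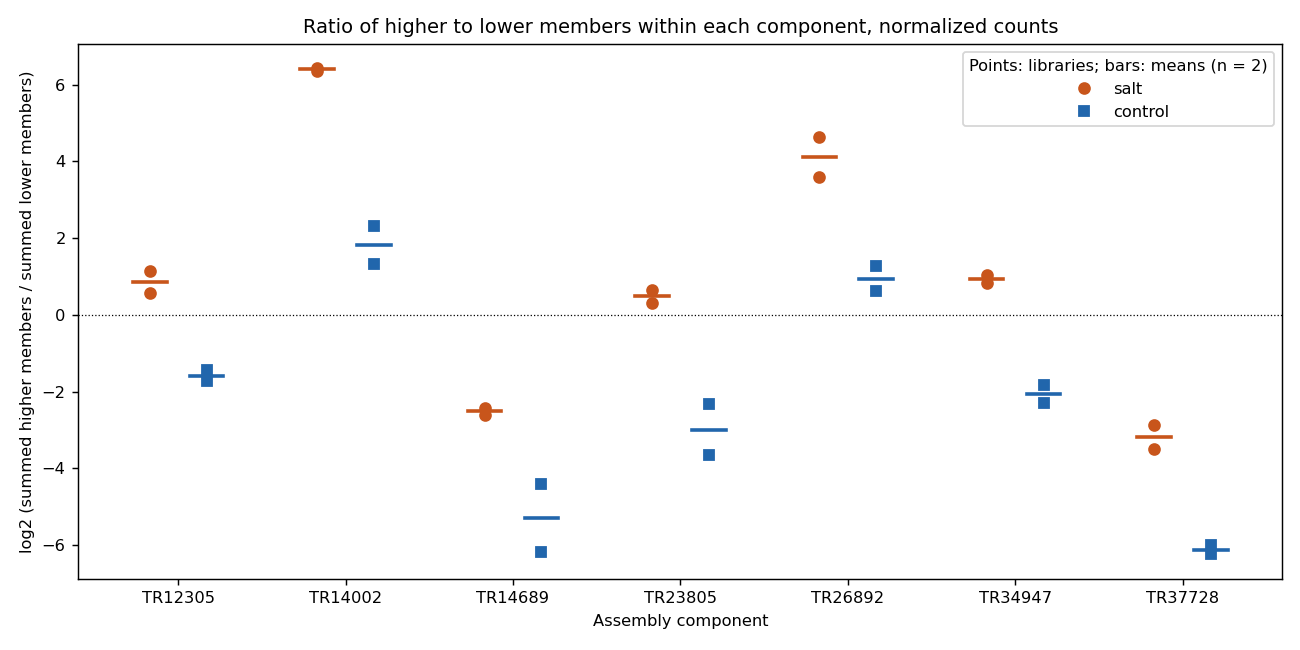
log2 of the summed normalized counts of the higher members over those of the lower members in each component, with circles for the salt libraries, squares for the control libraries and bars for their means (n = 2 each). Salt lies above control in all 7 components, which the rule fixes, by 2.43 to 4.57.

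Expressed as a share of the members' expected counts, the higher members of TR12305 held 64.1% ± 6.49 in salt and 25.1% ± 2.52 in control (SD, n = 2 each here and below). For TR34947 the share was 65.6% ± 2.204 in salt and 19.4% ± 3.77 in control, and for TR23805 58.2% ± 3.93 in salt and 11.98% ± 6.62 in control. In these 3 components most of the members' counts therefore came from the higher side in salt and from the lower side in control. The higher members already held most counts under both treatments in TR14002, with 98.8% ± 0.04 in salt and 77.4% ± 8.40 in control, and in TR26892, with 94.3% ± 2.63 in salt and 65.7% ± 7.10 in control. They were a minority under both in TR14689, with 14.9% ± 1.10 in salt and 2.91% ± 2.19 in control, and in TR37728, with 10.1% ± 2.78 in salt and 1.42% ± 0.17 in control.

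Counts favour long assembled genes, so levels were also compared per length. On the TPM scale, the summed higher members exceeded the summed lower members in both salt libraries in 4 components (TR12305, TR14002, TR26892 and TR34947). In the control libraries of these 4, the log2 ratio of TPM lay between -0.58 and 0.66, so both sides stood at similar levels there. In the other 3 the lower members exceeded the higher ones in every library. TR23805 changes class between the scales because its higher member is about 3 times as long as its lower one: TR23805|c3_g1 averaged 9.95 TPM ± 1.44 in salt and 3.31 TPM ± 0.64 in control, and TR23805|c2_g1 averaged 26.8 TPM ± 0.28 in salt and 118 TPM ± 90.1 in control.

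On the authors' scale most component totals stood apart between treatments as well. Summed over every assembled gene of the component, normalized counts overlapped between treatments only in TR12305, at 1360 ± 10.2 in salt and 1471 ± 181 in control (SD, n = 2 each). The total was higher in both salt libraries in TR14002 and TR26892 and lower in both in TR14689, TR23805, TR34947 and TR37728. Unlike the ratio within a component, a total depends on how libraries are scaled. With library totals TR23805 and TR34947 overlapped too, with TPM the total of TR34947 was higher in both salt libraries (180 and 166 TPM in salt, against 138 and 148 TPM in control), as was that of TR12305, and with TMM-scaled CPM TR12305 was lower in both. The other 4 stayed apart in the same direction under all 4 scalings. For TR26892 it was 865 ± 411 in salt and 387 ± 92.8 in control, and for TR37728 803 ± 9.16 in salt and 2218 ± 333 in control. Over all 2111 components with at least 2 assembled genes at a mean of 20, the total was above control in both salt libraries in 19.5% and below in 20.2%. These sums contain the members, so they share their selection.

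The 7 components held 58 assembled genes, of which 37 had a mean of at least 20 and 19 of those were not members. The log2 ratios of salt to control means of the 19 ranged from -2.82 to 0.66 with a median of -0.32, beside a median of 0.00 over all 15247. In TR12305 the 5 others stayed between -0.29 and 0.40. In TR14689 and TR34947 all others lay below 0 on the authors' scale, between -1.55 and -0.65 in TR14689 and between -0.65 and -0.32 in TR34947. Of these, TR14689|c0_g1 and TR34947|c4_g1 were lower in salt without overlap, and in the rest the treatments overlapped. Over the 7 components, 7 of the 19 others were lower in salt without overlap and 2 were higher. The share without overlap at any fold was not taken over all 15247, so these counts have no background. The lowest ratio of the 19 was that of TR37728|c4_g2. This gene had 145 (SS1) and 49.7 (SS2) normalized counts in salt, against 190 (AC1) and 1180.0 (BC1) in control. Its ratio rests largely on BC1. So does that of TR37728|c5_g3, with 6.33 and 4.52 in salt, against 8.15 (AC1) and 67.4 (BC1) in control and a mean of 21.6.

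**Figure D4:**
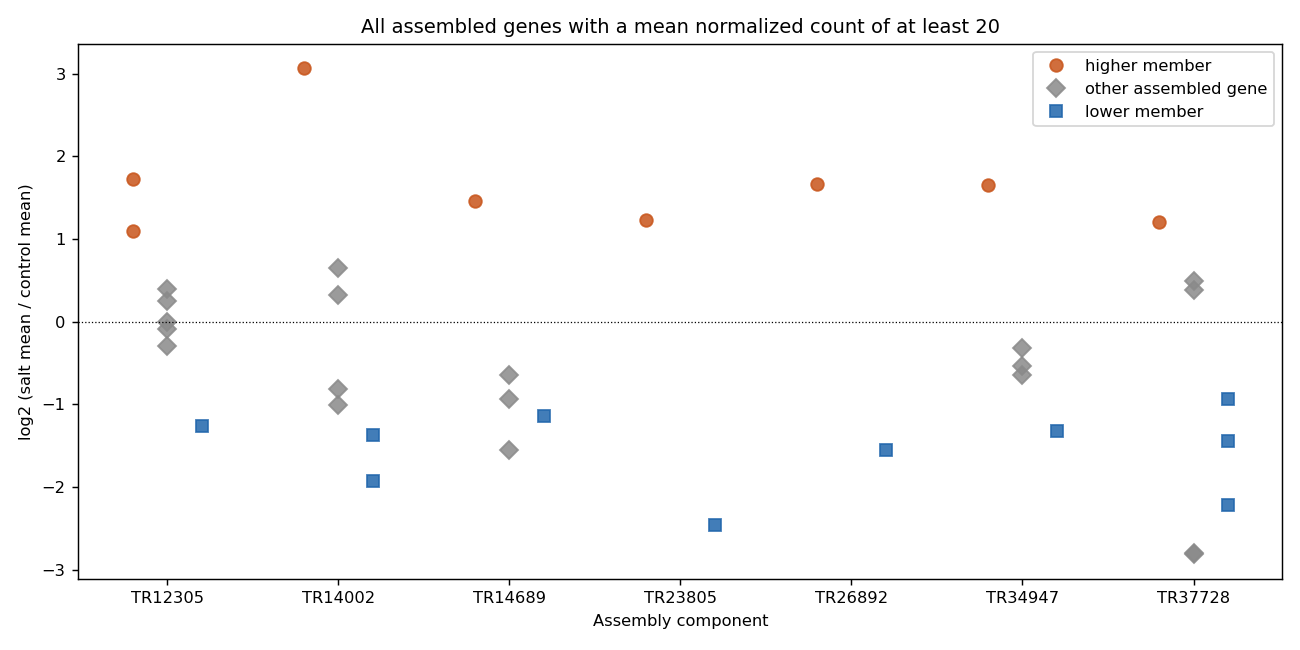
log2 ratio of the salt mean to the control mean of normalized counts for the 37 assembled genes with a mean of at least 20 in the 7 components, with circles for higher members, squares for lower members and diamonds for others. The others lie at -2.82 to 0.66, and 3 of the 19 lie below the lower members of their component, TR14689|c0_g1 at -1.55 and a pair in TR37728. The ratios of that pair rest largely on BC1.

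Some members share reads with another assembled gene, which bears on what their counts mean. An expected count that is not whole shows that reads were divided among assembled genes. Such counts occurred in 6 of 18 members (33.3%), against 9.31% of the 15247 assembled genes with a mean of at least 20. By the rule, every member lies in a component with at least 2 assembled genes at that mean. Only 2111 of the 12304 components with any such gene have 2 or more, so the background is unlike the members in this. The part of shared reads in the opposition was not tested beyond the sums below. TR12305|c1_g2 and TR12305|c1_g1, both of 1162 bases, had non-whole counts in all 4 libraries that added up to whole numbers. TR12305|c1_g1 had 156 (SS1) and 209 (SS2) normalized counts in salt, against 222 (AC1) and 224 (BC1) in control. Added together the pair had 520.1 and 573 in salt, against 367 and 419 in control, and the nearest libraries were then 1.24-fold apart, short of the 1.5 that the rule asks. The component would remain opposed through TR12305|c0_g1.

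TR34947|c4_g2 shared reads in all 4 libraries with TR34947|c4_g1, and TR37728|c5_g4 with TR37728|c5_g1. In both cases the sum stayed on the lower side of the rule, at 1.58-fold and 1.996-fold between the nearest libraries. TR34947|c4_g1 had 328 (SS1) and 342 (SS2) normalized counts in salt, against 479 (AC1) and 569 (BC1) in control, so that sum is mostly the partner. TR37728|c5_g1 had 7.47 and 3.52 in salt, against 17.2 and 16.5 in control, so that sum is nearly the member itself. Neither sum can show how the member alone would stand if shared reads were divided otherwise. The values of TR12305|c1_g2, TR34947|c4_g2 and TR37728|c5_g4 are therefore uncertain as values of single genes, since the estimation divides reads among assembled genes that they match equally.

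Length and isoform number were not used by the rule. The members' median assembled length was 1145 bases, against 1346 over the 15247, with 240 to 6271 over the members. Of the 18 members, 10 (55.6%) had 2 or more isoforms, against 55.4% of the 15247, and these were 3 of the 8 higher and 7 of the 10 lower members. For each multi-isoform gene the deposited length is weighted by isoform abundance and so moves when the isoform mix does. In 3 of the 10 such members the salt and control lengths did not overlap, 2 being longer and 1 shorter in salt. Of 8452 multi-isoform genes, 37.3% showed no overlap, 16.6% longer and 20.7% shorter in salt, so the members' share is near the background.

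A pair of those 3 differed widely in length, and both were higher members. TR26892|c1_g2, with 5 isoforms, had a weighted length of 1317 (SS1) and 1402 (SS2) bases in salt, against 1046 (AC1) and 857 (BC1) in control. Longer isoforms thus took more of its estimated expression in both salt libraries. TR14689|c4_g1 had 2071 and 1524 bases in salt, against 2454 in each control library, where all its estimated expression lay on its longer isoform. Per length it averaged 34.6 TPM ± 0.47 in salt and 6.93 TPM ± 4.75 in control (SD, n = 2 each), a wider ratio than in counts. The scales also differ in general, since the median log2 ratio over the 15247 was 0.36 in TPM and 0.00 in normalized counts. The third, TR14002|c5_g2, differed by only 3.85 bases.

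**Figure D5:**
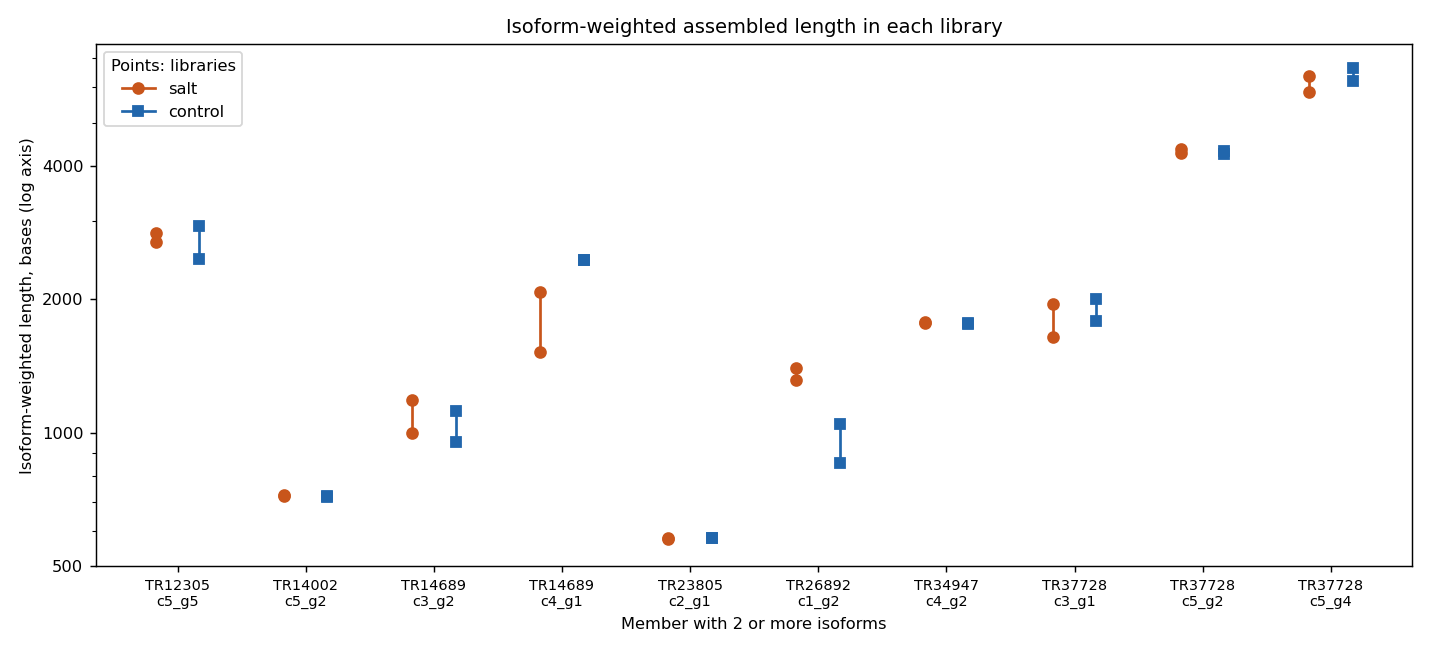
Isoform-weighted assembled length in bases (log axis) of the 10 members with 2 or more isoforms, with circles for the salt libraries and squares for the control libraries. TR26892|c1_g2 is longer in both salt libraries (1317 and 1402 against 1046 and 857 bases) and TR14689|c4_g1 shorter (2071 and 1524 against 2454 bases).

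The authors' deposited Cuffdiff table is another quantification deposited for the same series and gives a locus for 14 of the 18 members, with 18 loci in all. It does not say which treatment each condition is, so only agreement of signs can be read. The members were chosen on the salt and control values of this same series, so their signs here add no independent evidence. In 4 of the 5 components with loci on both sides, every locus of a higher member had the opposite sign to every locus of a lower member. The exception was TR26892, where the authors' deposited Cuffdiff table lists log2 fold changes of -1.04 and -1.09 for loci on isoforms of TR26892|c1_g2 and -1.60 for TR26892|c1_g3, all of the same sign. The opposition in TR26892 thus appeared in the gene-level expected counts and not at the tested loci. Outside TR26892, all loci of higher members were positive and all loci of lower members negative, so TR26892|c1_g2 had the unlike sign. No locus of a member is marked significant in the authors' deposited Cuffdiff table, where 219 of 26050 loci (0.841%) are, and the smallest q among the members was 0.091.

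The authors' deposited list of 646 assembled genes, 1.1% of their longer table and 3.96% of the assembled genes with a mean of at least 20, contains 4 of the 8 higher and 4 of the 10 lower members. Both sides of a component are in it for TR14689 and TR34947. That list was chosen on these same libraries, so it adds no independent evidence of direction. The authors' deposited table also gives a posterior probability of equal expression for the members outside the list. It was 0.838 for TR26892|c1_g2, 0.456 for TR23805|c2_g1 and 1.00 for TR23805|c3_g1, TR37728|c3_g1 and TR37728|c5_g5. For TR37728|c5_g4 it was 0.254 and for TR14002|c2_g1 0.117. The lowest were 0.0066 for TR12305|c5_g5, 0.0039 for TR14002|c5_g4 and 0.0037 for TR12305|c0_g1.

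Fitted over all assembled genes with edgeR's quasi-likelihood test, 0 of 20016 (0%) passed a Benjamini-Hochberg adjusted p under 0.05, and 1747 (8.73%) had an unadjusted p under 0.05. Fitted log2 fold changes were 1.05 to 3.02 for the higher members (median 1.49) and -2.50 to -0.998 for the lower members (median -1.47), beside a median of -0.05 over all tested. Their adjusted p-values in edgeR ran from 0.451 to 0.631. For TR14002|c5_g2 the fitted change was 3.02 with a standard error of 0.53. DESeq2 in its place called 168 assembled genes (0.842%) higher and 177 (0.887%) lower, and TR14002|c5_g2 was the only member among them (DESeq2 adjusted p = 5.8e-06). The rule used this contrast, so these values describe the members and do not test them.

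Threshold neighbours show how the edges of the rule fall. On the higher side, TR26892|c1_g2 was just inside at 1.65-fold between the nearest libraries, and TR39022|c8_g4 was just outside at 1.39-fold, in a component that has a lower gene. On the lower side, TR12305|c5_g5 was just inside at 1.60-fold and TR13970|c2_g2 just outside at 1.4996-fold. For the minimum mean, TR37728|c5_g5 was the least abundant member at 28.8, and TR8038|c3_g1 lay just outside at 19.3.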

How the data were processed

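The members, the rule and the comparisons were chosen with earlier results of these data known. RSEM 1.3.0, Cuffdiff 2.2.1, Cufflinks 2.1.1, TopHat2 2.0.9 and Bowtie2 2.1.0 are listed in the submitters' processing notes, with no role. The assembler is not given in the sources used here. According to the file headers, the authors deposited for each library an expected count, a TPM value and lengths in bases weighted over isoforms. The deposited normalized values are a signal equal to the expected count times 1 constant per library (0.792 for SS1, 0.904 for SS2, 1.16 for AC1 and 1.16 for BC1). The authors also deposited posterior probabilities, a score from 0 to 1 per assembled gene, beside the fold ratio (control divided by salt), and a Cuffdiff table with log2 fold changes and p-values or q-values.

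The rule was applied to the normalized values, leaving out 3 assembled genes with 0 in 3 libraries. Expected counts were rounded for edgeR 4.0.16 (TMM, filterByExpr, no covariate) and DESeq2 1.42.0 in R 4.3.3. Both were tested on simulated data whose changes were larger than the members' fitted ones, so that test does not cover changes of the members' size. limma 3.58.1 used log2(TPM + 1) and log2(TPM + 0.1) at a mean TPM of at least 1. Alternatives also covered scaling, the minimum mean, the fold threshold, the component definition, left-out libraries and a replicate block. A count within 0.005 of a whole number was taken as whole. All components found were named, as the naming rule asks for 12 or fewer. Libraries of the same treatment held different counts, with a chi-square statistic per degree of freedom of 30.3 for salt and 85.1 for control. Depth was 3752433 to 4682210 expected counts per library, so members below about 30 counts carry wide counting error.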

Additional observations from a re-analysis of the deposited data

How the results depend on the processing

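The 7 opposed components, 8 higher and 10 lower members became 7, 7 and 10 with library totals, 8, 9 and 12 with TMM-scaled CPM and 10, 10 and 12 with TPM. Library totals moved the median log2 ratio of the 15247 assembled genes to 0.47 and TPM to 0.36, from 0.00. TR12305|c5_g5 then overlapped between treatments with library totals (0.92-fold at the nearest libraries) and was 1.04-fold apart in TPM, and 15 of 18 members still met the fold and mean limits under each, 12 of 18 with library totals and 13 of 18 with TPM in a component that was still opposed. TR12305 was then no longer opposed, nor was TR14689 with library totals. The counts were 11, 13 and 18 at a minimum mean of 10, 5, 5 and 5 at 50, and 203, 228 and 233 with no minimum. They were 24, 26 and 34 at a lower fold threshold and 3, 3 and 4 at 2-fold, and also 3, 3 and 4 with components taken as the ID before "_g". The rule is looser with 1 library fewer, so all 18 members stayed, and the ranges were 27 to 77 components, 29 to 92 higher and 41 to 99 lower members. Merging members with the assembled gene whose reads they share in all 4 libraries, tried within the 7 components and chosen after seeing the data, gave 7, 7 and 10. The opposed pair of TR26892, which shares a read in 1 library, was left apart there. Component totals under other scalings were also chosen after seeing the data: the log2 ratio of salt to control means changed sign for TR12305, at -0.11 on the authors' scale, to 0.34 with library totals and 0.48 with TPM, and for TR34947, at -0.46, to 0.28 with TPM.

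The edgeR count of 0 stayed at 0 with RLE size factors, without a low-count filter, with both limma fits and with the replicate block, and was 345 with DESeq2. Without 1 library it ranged from 0 (without SS1 or SS2) to 1245 (without AC1), and was 477 without BC1. Among the members, edgeR then called TR14689|c4_g1 and TR23805|c2_g1 without AC1, and TR14002|c2_g1 and TR37728|c5_g4 without BC1. Such a fit takes its spread from the salt pair. The replicate block, with AC1 and SS2 (each called replicate 1 in its record's description) as a pair and BC1 with SS1, gave 0 calls and the same sign for all 18 members. Since the salt record's library names do not match its files, this pairing is uncertain. Deviations of the paired libraries correlated at 0.11 over 15247 assembled genes, and 2 pairs were not taken as a paired design. The median difference in the higher members' share of the members' counts, salt minus control, was 28.6 percentage points, 32.6 in TPM, 17.7 as a share of all counts of the component, and 26.7 to 33.6 without 1 library. The signs of the fitted log2 fold changes of the 18 members held under every setting run. The rule's gap between the treatments largely fixes these signs, so their stability is no test.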
